A study of Mus musculus with 7 samples.

Results

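Disease-associated microglia are the plaque-responding state of the brain's resident macrophages, and they were picked out here from single-nucleus RNA libraries of 5xFAD mouse brain. A nucleus entered the microglial gate with fewer than 3 UMIs (unique molecular identifiers, each standing for 1 captured RNA molecule) of Rbfox3 and Snap25 together. It also needed at least 3 of the 8 microglial genes Inpp5d, Csf1r, Cx3cr1, P2ry12, Runx1, Dock8, Ikzf1 and Ly86, with at least 15 of their UMIs per 10000. A gated nucleus counted as disease-associated with at least 1 UMI of at least 2 of the 12 genes Cst7, Itgax, Lpl, Csf1, Clec7a, Gpnmb, Spp1, Dkk2, Axl, Igf1, Myo1e and Apbb2. Clec7a has no row in the count tables, so 11 of these rule genes could act. Of 58169 nuclei that passed the filters, 2714 met the microglial gate, and 1179 of these (43.4%) met the disease-associated rule. The remaining 1535 gated nuclei are called other microglia.

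The mice carried the 5xFAD transgenes on 1 chromosome copy (5xFAD +/-), an amyloid plaque model, and all were 6 months old. All had received an AAV by retro-orbital injection at 4 months of age, an AAV for ANGPT2 in 4 mice and a control AAV in 3. The protein, angiopoietin-2, is released by blood vessel cells and binds TIE2 on endothelium. The ANGPT2 libraries came from a male and a female in each of the 2 batches that the labels number, and the control libraries from a male and a female in batch 1 and a male in batch 2. The tissue was fresh-frozen subcortex, thalamus and hippocampus. No mouse without the 5xFAD transgenes and no mouse without an AAV was among the 7 libraries. The labels name neither the promoter of the AAV nor the cells it reached.

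Microglia around amyloid plaques leave a resting state marked by Tmem119 and P2ry12 and take up a second program that depends on the lipid receptor Trem2. That program includes a protease inhibitor (Cst7), a lipoprotein lipase (Lpl), growth factors (Igf1, Csf1), adhesion and phagocytic receptors (Itgax, Axl) and lysosomal or secreted glycoproteins (Gpnmb, Spp1). Dkk2 is a secreted Wnt antagonist, Myo1e is a membrane-linked myosin, and Apbb2 is an adaptor that binds the amyloid precursor protein's tail. Nuclear libraries hold many unspliced transcripts and miss most cytoplasmic mRNA.

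The start-site windows of the rule genes were read because these genes chose the nuclei together. RefSeq windows of 300 bases, from 250 bases before to 50 after a start, were found for 11 of the 12 genes on GRCm38.p6, in 14 windows. The AP-1 motif (TGANTCA, its own reverse complement) was in windows of 4 of these genes, and 7.81% of all 32851 RefSeq windows hold it. The PU.1 motif (GAGGAAGT, both strands) was in the window of Spp1 and in 3.20% of all windows. No rule gene window held CACGTG (7.15% of all windows) or CATGTG (14.2%). The 4 windows with the AP-1 motif are shown 5′ to 3′ on the plus strand with the motif in capitals. They lie at chr2:150570165-150570464 (Cst7), chr6:49036268-49036567 (Gpnmb), chr7:128129300-128129599 (Itgax) and chr10:87860861-87861160 (Igf1), and the motif begins at -6, +9, -56 and -37 from the annotated start in that order.
Cst7: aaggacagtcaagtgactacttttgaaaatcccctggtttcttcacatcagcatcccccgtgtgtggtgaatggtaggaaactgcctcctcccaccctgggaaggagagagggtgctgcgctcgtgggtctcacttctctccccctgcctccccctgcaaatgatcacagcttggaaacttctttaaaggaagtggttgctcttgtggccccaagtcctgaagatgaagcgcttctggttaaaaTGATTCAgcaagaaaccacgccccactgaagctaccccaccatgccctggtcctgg
Gpnmb: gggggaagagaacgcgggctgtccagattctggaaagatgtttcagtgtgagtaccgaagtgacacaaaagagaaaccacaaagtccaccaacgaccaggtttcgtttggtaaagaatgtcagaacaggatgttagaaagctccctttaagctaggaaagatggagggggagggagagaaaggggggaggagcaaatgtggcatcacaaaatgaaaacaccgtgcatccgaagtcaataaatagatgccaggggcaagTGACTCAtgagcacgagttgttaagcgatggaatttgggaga
Itgax: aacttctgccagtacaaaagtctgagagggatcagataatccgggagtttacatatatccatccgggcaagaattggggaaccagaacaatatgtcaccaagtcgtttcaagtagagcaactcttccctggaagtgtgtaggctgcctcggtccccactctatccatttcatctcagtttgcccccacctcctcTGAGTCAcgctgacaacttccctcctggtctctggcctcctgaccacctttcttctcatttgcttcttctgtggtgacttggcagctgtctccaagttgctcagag
Igf1: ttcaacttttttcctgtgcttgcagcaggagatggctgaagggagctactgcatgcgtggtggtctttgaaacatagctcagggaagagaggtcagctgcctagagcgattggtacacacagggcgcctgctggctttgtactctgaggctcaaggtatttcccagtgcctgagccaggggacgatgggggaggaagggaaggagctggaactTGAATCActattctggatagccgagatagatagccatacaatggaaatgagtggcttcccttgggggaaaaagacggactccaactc
Among the 15 genes outside the rule that were highest in the disease-associated nuclei, 10 had windows and none held the AP-1 motif. Of the 10 lowest, 6 had windows and 1 held it. These matches describe letters in a window, and no factor's binding was measured.

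The 7 libraries held 25466033 to 100529717 UMIs in 6311 to 9630 barcodes, and the microglial gate took 3.28% to 6.96% of the nuclei that passed. Batch 2 was shallower. Disease-associated nuclei had median UMIs of 2560 in the male and 2949 in the female ANGPT2 library of batch 1, against 3392.5 in the male and 2451.5 in the female control library. In batch 2 they had 1395.5 in the male and 1038 in the female ANGPT2 library, against 975.5 in the control male. In each library the other microglia had a lower median, between 823.5 and 2633.5. The rule needs detected UMIs, so depth moves with membership in these data, and shares are therefore also given with every nucleus thinned to 1 fixed number of UMIs. Of 56305 distinct barcode sequences 1941 occurred in more than 1 library, and 1 sequence of a disease-associated nucleus did.

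Of the 1179 nuclei 150 (12.7%) were called doublets, 8.82% to 17.8% in the ANGPT2 libraries and 9.54% to 13% in the controls. Of the 8 oligodendrocyte markers Mog, Mag, Aspa, Ermn, Cldn11, Gjb1, Opalin and Ugt8a at least 3 were detected in 204 of the nuclei (17.3%), from 6% of those in the control male of batch 2 to 29.2% in the control male of batch 1. Markers of border macrophages (at least 3 of their list) were found in 9 of the nuclei, and lymphocyte markers in 1. Among the other microglia 4.68% to 9.63% per library were called doublets, and 2.34% to 14% had at least 3 of the oligodendrocyte markers. Only in the ANGPT2 male of batch 2 was the doublet share of the other microglia the higher, at 8.93% against 8.82%. Results are given with and without the nuclei that carry oligodendrocyte markers where that changes them.

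The detected rule genes differed in how often they admitted a nucleus. Of the 1179 nuclei 436 had exactly 2 rule genes, 290 had 3, 229 had 4 and 224 had 5 or more. Just outside the rule stood 749 gated nuclei with exactly 1 rule gene, of which 522 had Apbb2 alone, 123 Myo1e alone and 36 Csf1 alone, and 786 nuclei had none. Apbb2 was detected in 91.7% of the disease-associated nuclei, Myo1e in 78.1%, Csf1 in 42.4% and Igf1 in 37.5%. Axl was detected in 17.5%, Lpl in 15.6%, Dkk2 in 14.8%, Cst7 in 14.7%, Itgax in 13.7%, Gpnmb in 5.77% and Spp1 in 2.12%. Thus 384 nuclei carried no rule gene other than Apbb2, Myo1e and Csf1, and 403 carried at least 2 of the other 8.

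These 3 common genes are also found in nuclei that are not microglia. With every nucleus thinned to 1000 UMIs, 24.2% to 51.0% of microglial nuclei per library had 2 or more rule genes, against 7.66% to 13% of oligodendrocyte nuclei and 1.49% to 6.61% of astrocyte nuclei. The median UMIs before thinning were 853.5 to 2921.5 in microglia, 910 to 2821 in oligodendrocytes and 1314.5 to 4442 in astrocytes. Without thinning the shares were 28.8% to 60.9%, 11.7% to 38.5% and 8.35% to 30% in the same order. Counting only the other 8 genes, 4.17% to 14.1% of thinned microglial nuclei had at least 2, against 0% to 0.319% of oligodendrocytes and 0% to 0.575% of astrocytes.

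Gene by gene at 1000 UMIs, the share of nuclei with Igf1 was 7.29% to 19.9% in microglia against 0% to 1.15% in oligodendrocytes, and that with Dkk2 was 2.89% to 7.93% against 0% to 0.313%. Cst7 was found in 1.08% to 5.83% of microglia against 0% to 0.522%, Itgax in 2.53% to 5.88% against 0% to 0.251%, and Lpl in 2.17% to 5.83% against 0.492% to 0.940%. For these genes every microglial library stood above every oligodendrocyte value. Apbb2 was found in 39.5% to 67.5% of microglia against 29.6% to 35.6% of oligodendrocytes. Myo1e at 21.7% to 44.7% against 9.93% to 22.3%, and Csf1 at 9.65% to 18.9% against 9.77% to 13.4%, overlapped with oligodendrocytes. Csf1 detection alone therefore does not set microglia apart from oligodendrocytes. In astrocytes Csf1 was found in 3.22% to 8.04%, below every microglial library. Axl was found in 1.29% to 8.25% of microglia against 2.06% to 4.89% of astrocytes, Gpnmb in 0% to 3.40% against 0% to 2.01%, and Spp1 in 0% to 1.47% against 0% to 1.01%, so these 3 overlapped with astrocytes. At 1000 UMIs pairs of the other 8 genes were rare in oligodendrocytes and astrocytes. On unthinned counts, an unlike depth, only 403 of the 1179 disease-associated nuclei carried such a pair. The label is weaker for the 384 nuclei with no rule gene other than Apbb2, Myo1e and Csf1. These shares compare microglia with other cell types and do not bear on the state of the microglia.

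Genes outside the rule were compared between the disease-associated nuclei and the other microglia of the same library. The rule made this contrast, so the values are a description and no test was made. Levels are CPM, the UMIs of a gene per 1e+06 UMIs of the summed nuclei, and differences are log2 ratios with a prior count of 2. Of 7127 genes 97 (1.36%) were higher by over 1 log2 unit in 7 of 7 libraries and 33 (0.463%) were lower by as much. Of the 97, 9 are rule genes.

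The highest gene outside the rule was Mamdc2, a secreted protein with MAM domains. It had 104, 198 and 295 CPM (lowest, median and highest library) in disease-associated nuclei against 0, 4.39 and 29.4 CPM in other microglia, from 501 and 23 UMIs in all. Ctnna3, an adherens-junction catenin, had 730, 1100 and 1429 CPM against 106, 180 and 340 CPM, a log2 difference of 2.58 ± 0.60 (SD, n = 7 libraries). Neither gene's ranges overlapped between the 2 states, and the difference of Ctnna3 was 3.56 without the nuclei that carried oligodendrocyte markers.

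Ank, a transporter that moves ATP and pyrophosphate out of cells, had 628, 852 and 1679 CPM against 146, 211 and 503 CPM. Lilrb4a, an inhibitory immunoglobulin-like receptor, had 118, 291 and 363 CPM against 14.1, 43.4 and 88.1 CPM. Both were higher in disease-associated nuclei in every library, by 1.97 ± 0.43 and 2.52 ± 0.68 log2 units (SD, n = 7). Acaca, which makes malonyl-CoA for fatty acid synthesis, stood at 378, 495 and 652 CPM against 134, 152 and 258 CPM. Acaca was not among the 15 highest. Besides Mamdc2, Ctnna3, Ank and Lilrb4a these held Baiap2l2, Bcar3, Olfr111, Flt1, Tmem163, Etl4, Ptchd1, Colec12, Fgf2, Rab7b and Gm15155. The mean log2 differences of the genes from Baiap2l2 to Gm15155 were 1.90 to 2.94. Flt1 is a VEGF receptor, Colec12 a scavenger receptor, Fgf2 a growth factor and Rab7b a GTPase of late endosomes.

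**Figure D1:**
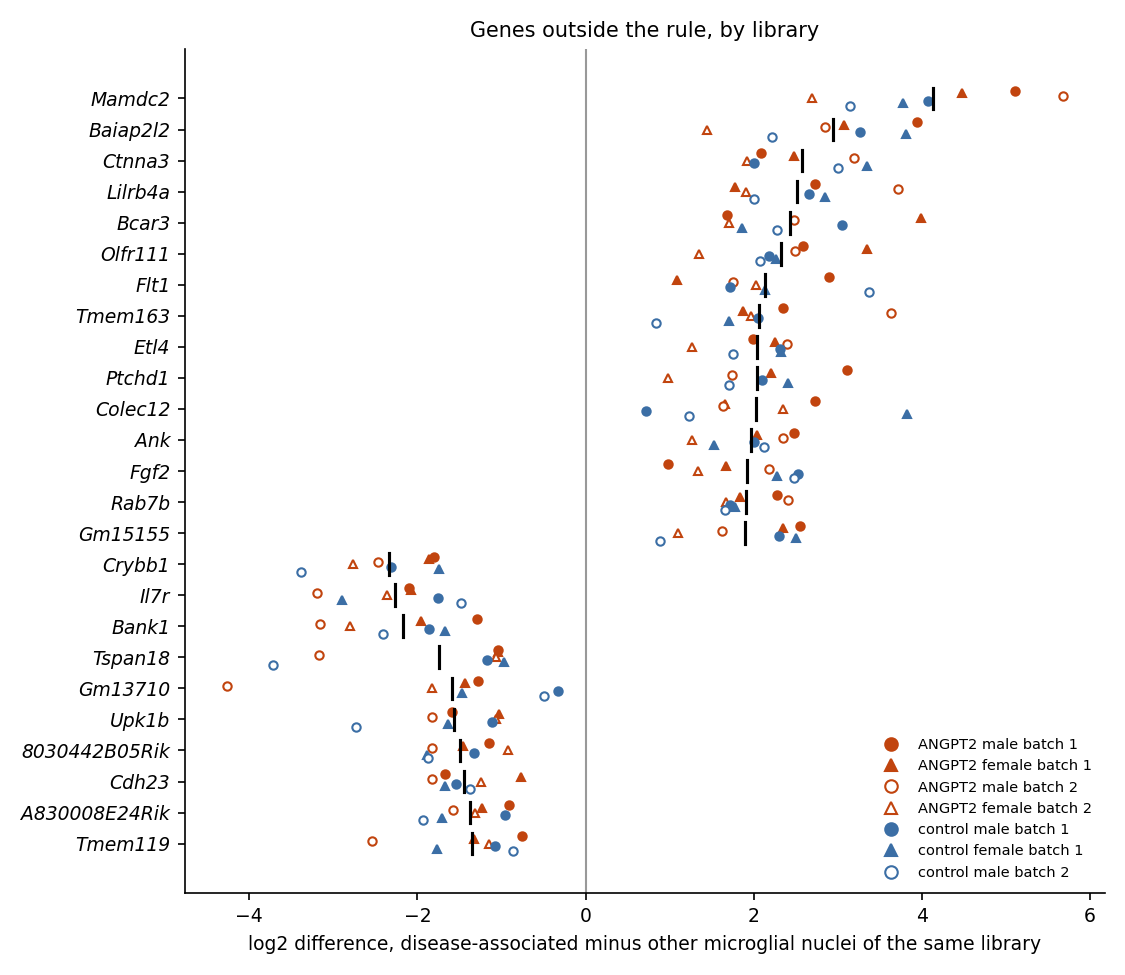
Log2 difference in CPM between disease-associated nuclei and the other microglia of the same library (horizontal axis), for the 15 highest and 10 lowest genes outside the rule. Each symbol is 1 library (ANGPT2 in orange, control in blue, males circles, females triangles, batch 1 filled, batch 2 open) and the black tick is the mean of 7. Mamdc2 is at a mean of 4.14 and Crybb1 at -2.33, and all 7 libraries lie on one side of 0 for each gene.

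Genes known from the resting state, Crybb1 and Tmem119, were among the lowest in disease-associated nuclei. Crybb1, a crystallin of resting microglia, had 0, 17.3 and 28.9 CPM against 45.7, 79.0 and 115 CPM in other microglia. Il7r, a cytokine receptor chain outside the homeostatic list, had 0, 9.09 and 18.5 CPM against 26.1, 74.8 and 98.9 CPM. Bank1, a signalling scaffold also outside that list, had 30.8, 40.7 and 106 CPM against 113, 239 and 364 CPM. Tmem119, the surface protein that defines resting microglia, had 27.5, 49.2 and 76.6 CPM against 94.6, 134 and 182 CPM. None of these ranges overlapped. At least 3 lymphocyte markers were detected in 16 of the other microglia and in 1 disease-associated nucleus. Of the 8 gate genes 5 were lower in 7 of 7 libraries and 1 was higher. P2ry12, a purinergic receptor, differed by -0.66 ± 0.22 and Csf1r, the receptor of Csf1, by -0.59 on the log2 scale. Runx1, a transcription factor, differed by -0.02, and Ly86 went the other way, at a mean of 977 against 838 CPM. UMIs of the gate genes helped admit the nuclei, so these values describe genes that the rule used.

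By list, 9 of the 26 measured disease-associated microglia genes outside the rule were higher past 1 log2 unit, 19 were higher in 7 of 7 libraries and none was lower in 7 of 7. Of all 7127 genes 7% were higher and 7.06% lower in 7 of 7. The list's median difference was 0.75, against -0.02 over all genes. Apoe, the lipid carrier, had 720, 855 and 1439.5 CPM in disease-associated nuclei against 335, 479 and 762 CPM, and the lysosomal protease Ctsd had 530, 609 and 899 CPM against 369, 395 and 522 CPM. Of 29 measured homeostatic genes 17 were lower in 7 of 7 libraries and 2 were higher, with a median of -0.46. Among 19 genes of growth, cytoskeleton and migration 7 were higher past 1 log2 unit (median 0.24). The lipid uptake and storage list had 2 of 16 past that fold (median 0.42) and the phagocytosis and lysosome list 1 of 31 (median 0.07). The interferon list had 1 of 16 past it (Ifi207, median 0.11), the MHC class I list 0 of 10 (median 0.06) and the TREM2 signalling list 0 of 18 (median -0.06). Glycolysis genes (median -0.05, 16 genes) and transcription factors of microglia (median -0.05, 20 genes) lay near the median of all genes.

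Genes of other cell types moved with the state too. All 5 abundant oligodendrocyte genes were higher in 7 of 7 libraries in disease-associated nuclei (median 0.79), among them Mbp, a myelin protein, at 1261 ± 405 CPM against 764 ± 275 CPM (SD, n = 7). Of 7 measured oligodendrocyte markers 4 were higher in 7 of 7 (median 0.61), and of 12 neuronal genes 7 were lower in 7 of 7 (median -0.37). The part of these nuclei or this free RNA in the differences above was not tested, other than by leaving out nuclei with oligodendrocyte markers, where 103 genes were higher and 28 lower of 5925.

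Levels of several genes, though not of all, shifted stepwise with the number of rule genes detected. Ank stood at a median over libraries of 175 CPM in nuclei with no rule gene, 222 with 1, 556 with 2, 698 with 3, 1087 with 4 and 1473 with 5 or more. Apoe stood at 399, 531, 750, 792, 1121 and 1103 CPM over the same steps. Siglech, a homeostatic surface receptor outside the gate, went the other way, at 814, 682, 533, 442, 302 and 274 CPM. Thus Ank had its largest ratio between neighbouring steps from 1 to 2 rule genes, at the border of the rule. Not every gene followed Ank and Apoe. Fth1 stood at 726, 603, 693, 582, 563 and 519 CPM and Tyrobp at 88.7, 83.8, 88.7, 143, 58.3 and 82.9 CPM. The phagocytosis and lysosome list summed to 9576 CPM with no rule gene and 9704 CPM with 5 or more. P2ry12 stood at 875, 747, 604, 547, 441 and 374 CPM and Cx3cr1, the fractalkine receptor, at 722, 573, 498, 420, 390 and 288 CPM. UMIs of these 2 genes helped admit the nuclei to the gate, so their order describes values that the rule used. The 8 oligodendrocyte markers summed to 339, 609, 711, 795, 685 and 822 CPM, and median UMIs per nucleus were 1043.5 with no rule gene, 1957 with 1 and 2848.5 with 5 or more. The part of depth and of oligodendrocyte RNA in this order was not tested.

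**Figure D2:**
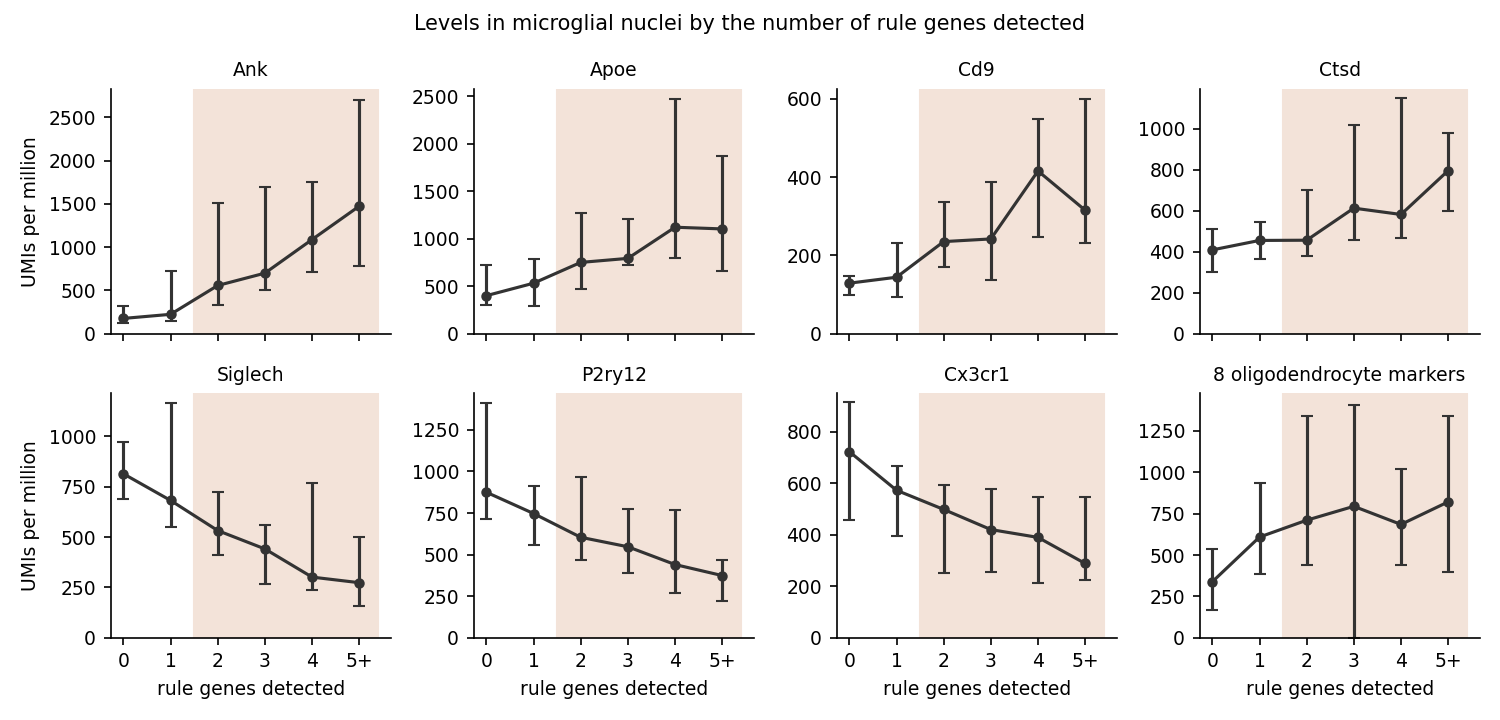
Levels in microglial nuclei (vertical axes, CPM of the summed nuclei) by the number of rule genes detected (horizontal axes). Points are the median of the 7 libraries and bars run from the lowest to the highest library; the shaded range meets the rule. Ank climbs to 1473 CPM at 5 or more rule genes, P2ry12, a gate gene, is at 374 CPM there, and the oligodendrocyte markers climb between 0 and 1.

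The first comparison of the treatment asks whether the ANGPT2 AAV changed how many microglia were in the disease-associated state. Thinned to 1000 UMIs, 25.6% and 25.1% of microglial nuclei met the rule in the male and female ANGPT2 libraries of batch 1, and 25.5% and 51.0% in those of batch 2. In the controls the shares were 24.2% in the male and 45.2% in the female of batch 1, and 38.2% in the male of batch 2. The groups overlapped, and a female library was the highest in each. The mean was 31.8% ± 12.8 in 4 ANGPT2 libraries and 35.9% ± 10.7 in 3 control libraries (SD), a difference of -4.08 percentage points (exact two-sided permutation test over 35 splits, p = 0.657). The difference was -9.35 points within batch 1 and 0.0106 within batch 2.

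These thinned shares rest on unequal numbers. In batch 1 at most 5 nuclei per library were too shallow, while 44 and 375 were left out in the male and female ANGPT2 libraries of batch 2 and 336 in the control male. Thinning to 500 UMIs keeps more of them and gave 14.3%, 14%, 12.7% and 25.3% in the ANGPT2 libraries, against 11.7%, 26.5% and 18.0% in the controls (difference -2.15 points, exact p = 0.6). Without thinning the shares were 46.2%, 44.3%, 28.8% and 41.1% in the ANGPT2 libraries, against 47.8%, 60.9% and 31.8% in the controls. Counting error alone gives 95% Wilson intervals such as 23.4% to 34.9% for the unthinned ANGPT2 male of batch 2 and 56.2% to 65.4% for the control female. Without the control female, the sign changed to 0.593 points.

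**Figure D3:**
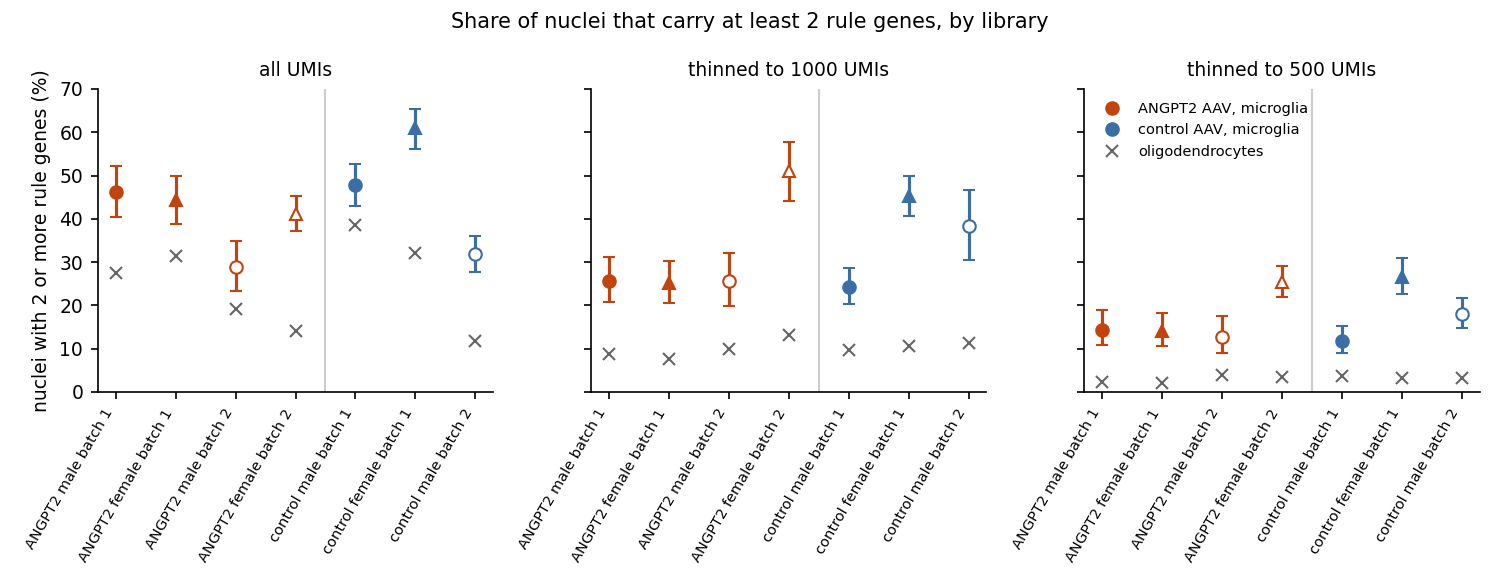
Percent of microglial nuclei with at least 2 rule genes (vertical axis) in each library, ANGPT2 in orange and control in blue, with 95% Wilson intervals as bars, without thinning, thinned to 1000 UMIs and thinned to 500 UMIs. Crosses are oligodendrocyte nuclei under the same rule, at 7.66% to 13% when thinned to 1000 UMIs; the ANGPT2 female of batch 2 reaches 51.0% and the control female 45.2% there.

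The sex of the mice is unbalanced between the groups, with 2 of 4 ANGPT2 mice and 1 of 3 control mice female. At 1000 UMIs the females averaged 40.4% ± 13.6 (n = 3) and the males 28.4% ± 6.60 (n = 4), a difference of 12 percentage points (exact permutation test, p = 0.229). It was 10.2 points in batch 1 and 19.1 in batch 2. With the 8 genes other than Apbb2, Myo1e and Csf1, a choice made after the data were seen, at least 2 were found in 5.79% to 14.1% of microglial nuclei in females and in 4.17% to 5.29% in males. The lowest female, the ANGPT2 female of batch 1, had 18 of 311 nuclei (95% Wilson interval 3.69% to 8.96%) and the highest male, the control of batch 1, had 21 of 397 (3.49% to 7.95%), so the separation rests on few nuclei. In this thinning, the 1 drawn for these genes, every female stood above every male, with means of 9.89% ± 4.15 and 4.91% ± 0.508 and a difference of 4.97 points (exact permutation test, p = 0.0286, the smallest that 35 splits can give). Within batches, where 0.0556 is the smallest possible p, the difference was 6.02 points with exact p = 0.0556.

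The rule genes themselves did not differ detectably between ANGPT2 and control mice. Their levels in all microglial nuclei are independent of the rule, and there 10 of the 11 genes passed the count filter (Spp1 did not). Of 10006 genes tested in microglia with edgeR's quasi-likelihood test none passed an adjusted p of 0.05. At an unadjusted p under 0.05 stood 400 genes (4%; 1.63% higher and 2.37% lower), and DESeq2 called none and had 208. With sex in the fit 3 genes passed, and with batch and sex 20 did, 15 of them lower in ANGPT2 mice and no rule gene among them. No rule gene was among the 400. On balance 5 of the 10 were above 0 and 5 below, with a median log2 change of -0.03.

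In all microglia Igf1 had 141, 136, 157 and 281 CPM in the ANGPT2 libraries (male and female of batch 1, then of batch 2), against 124, 261 and 167 CPM in the controls (male and female of batch 1, male of batch 2). Myo1e had 460, 326, 459 and 671 CPM in ANGPT2 mice against 360, 939 and 500 CPM in controls. In both genes the highest libraries were the ANGPT2 female of batch 2 and the control female, and the groups overlapped. Itgax had 37.9, 37.9, 49.1 and 51.1 CPM in ANGPT2 mice against 19.1, 29.5 and 60.1 CPM in controls, a log2 change of 0.43 (SE 0.32).

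Within the disease-associated nuclei, detection of these genes chose the nuclei, which compresses differences, and the values are given for completeness. Levels here are CPM over the genes tested, scaled by TMM. Apbb2 had 1179, 1008, 1417 and 1660 CPM in ANGPT2 mice against 984, 1218 and 1683 CPM in controls. Cst7 had 39.0, 67.4, 147 and 118 CPM against 62.4, 69.7 and 103 CPM in controls, and Dkk2 had 190, 90.5, 107 and 184 CPM against 61.1, 145 and 154 CPM. Lpl had 57.2, 103, 78.2 and 104 CPM against 88.4, 101 and 83.5 CPM in controls. The libraries of the groups interleave for each of them. Gpnmb, a glycoprotein of lysosomes, had 5, 13, 0 and 22 UMIs in ANGPT2 mice against 15, 68 and 8 UMIs in controls. With 109066 UMIs in the ANGPT2 male of batch 2, its count of 0 allows up to 27.5 CPM. Log2 changes ran from -0.68 (SE 0.75) for Gpnmb to 0.51 (SE 0.52) for Itgax, all with an edgeR adjusted p of 0.999. With batch as a block 8 of the 10 lay below 0, against 3 without it, so their direction is not settled.

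**Figure D4:**
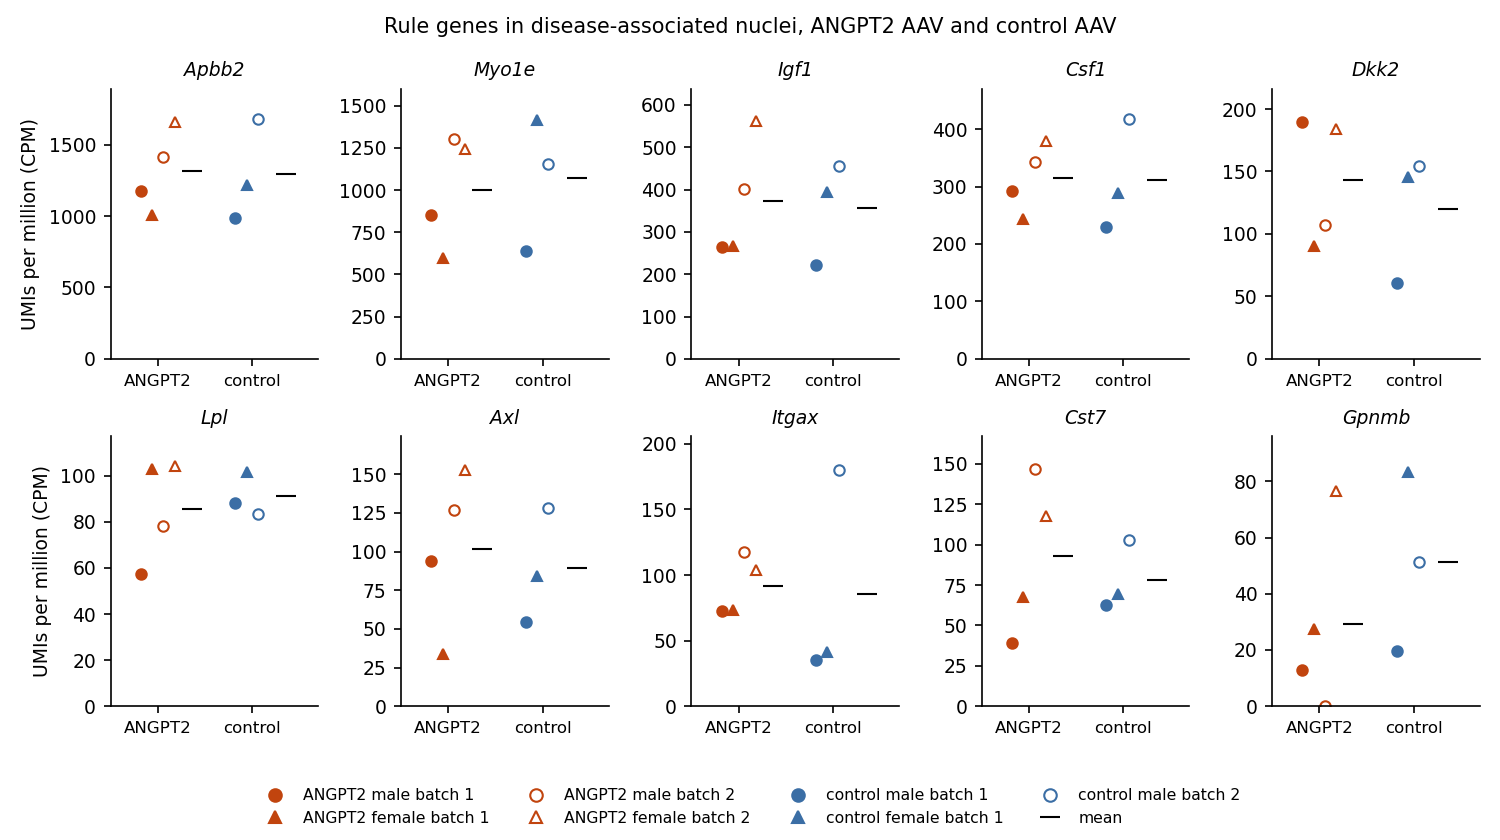
TMM-scaled CPM (vertical axes) of the 10 tested rule genes in disease-associated nuclei, ANGPT2 libraries on the left in orange and control libraries on the right in blue, with the group mean as a black tick. Circles are males and triangles females, filled in batch 1 and open in batch 2. The groups overlap for every gene, as for Apbb2 at 1008 to 1660 CPM in ANGPT2 mice and 984 to 1683 CPM in controls.

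Across all genes of the disease-associated nuclei the comparison of ANGPT2 with control also gave no call. Of 7832 genes tested none passed an adjusted p of 0.05 with edgeR or DESeq2, 248 (3.17%) had an unadjusted p under 0.05 with edgeR (1.48% higher and 1.69% lower in ANGPT2 mice) and 95 with DESeq2. All ANGPT2 libraries stood below every control for 197 genes (2.52%) and above for 176 (2.25%). The 10 genes with the smallest p on the lower side included H2-D1 and H2-Q4 of the MHC class I list and Ifi207 and Slfn8 of the interferon list, genes that type I interferon is known to induce in microglia. Also among them were Apobec1, Max, Gm16118, Galnt17 and Gm4951.

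H2-D1, a classical MHC class I heavy chain, had 54.6, 46.3, 48.9 and 59.0 CPM in ANGPT2 mice against 116, 198 and 89.9 CPM in controls. Every ANGPT2 library was below every control, at a log2 change of -1.45 (SE 0.27, edgeR adjusted p = 0.207), -1.51 within batch 1 and -0.70 within batch 2. H2-Q4, whose reads may be shared with near-identical class I paralogs, was at -2.18 (SE 0.43, edgeR adjusted p = 0.207). Ifi207, an interferon-induced HIN-200 protein, had 44.2, 40.0, 29.3 and 55.6 CPM in ANGPT2 mice against 76.7, 182 and 83.5 CPM in controls. The groups did not overlap for it, and edgeR's adjusted p was 0.517. Apobec1, an RNA-editing deaminase, had 224, 128, 195 and 233 CPM in ANGPT2 mice against 344, 346 and 366 CPM in controls (log2 change -0.86, SE 0.21, edgeR adjusted p = 0.517).

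Of the 38 genes on the interferon list 19 passed the filter, and 18 of these were below 0, against 49.1% of all genes tested. At an unadjusted p under 0.05, 9 of them were lower, against 1.69% of all genes tested. In 4, Ifi207, Slfn8 and Irf9 among them, every ANGPT2 library was below every control, against 2.52% of all genes. The median log2 change of the 19 was -0.61, against 0.01 over all genes. The filter keeps a gene that 3 libraries express, so genes low in the 4 ANGPT2 libraries can pass through the 3 controls. With no filter 37 of the 38 had counts and 36 of these were below 0, at a median of -0.90 against -0.05 over all genes in that setting. The list summed to 947, 926, 899 and 1532 CPM in ANGPT2 mice against 1403, 2202 and 2282 CPM in controls (CPM of all UMIs). The ANGPT2 female of batch 2 lay above the control male of batch 1, so the sums overlap. Without called doublets and nuclei with oligodendrocyte markers they were 1036 to 1879 CPM in ANGPT2 mice against 1886 to 2728 CPM in controls. There they did not overlap, but the gap was far smaller than the SDs of 390 and 427 CPM. The removal of nuclei with oligodendrocyte markers was added after the data were seen.

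On the MHC class I list 11 of 18 genes passed and all 11 were below 0, with a median of -0.39. At an unadjusted p under 0.05 stood 4 of them (H2-Q4, Nlrc5, H2-D1 and H2-K1), against 1.69% of all genes tested on the lower side. Without a filter all 18 were below 0, at a median of -0.61 against -0.05 over all genes in that setting. Nlrc5, the transactivator of class I genes, had 28.6, 31.6, 29.3 and 62.5 CPM in ANGPT2 mice against 48.1, 130 and 199 CPM in controls. The list summed to 492, 559, 651 and 620 CPM against 771, 1163 and 966 CPM in controls, and these sums did not overlap. These lists were chosen with earlier results of these libraries known, so their direction is no independent evidence. In all microglia 24 of 24 tested interferon genes and 15 of 15 class I genes were below 0, against 50.8% of all genes, and those nuclei include the disease-associated ones. Without the control female 16 of 18 tested interferon genes were below 0 in disease-associated nuclei, and 3 rather than 9 had a p under 0.05. With batch and sex in the fit 17 genes passed an adjusted p of 0.05, 12 of them lower in ANGPT2 mice. Among these Nlrc5 had a log2 change of -1.93 (edgeR adjusted p = 0.000206) and H2-D1 -1.49 (edgeR adjusted p = 0.00118).

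**Figure D5:**
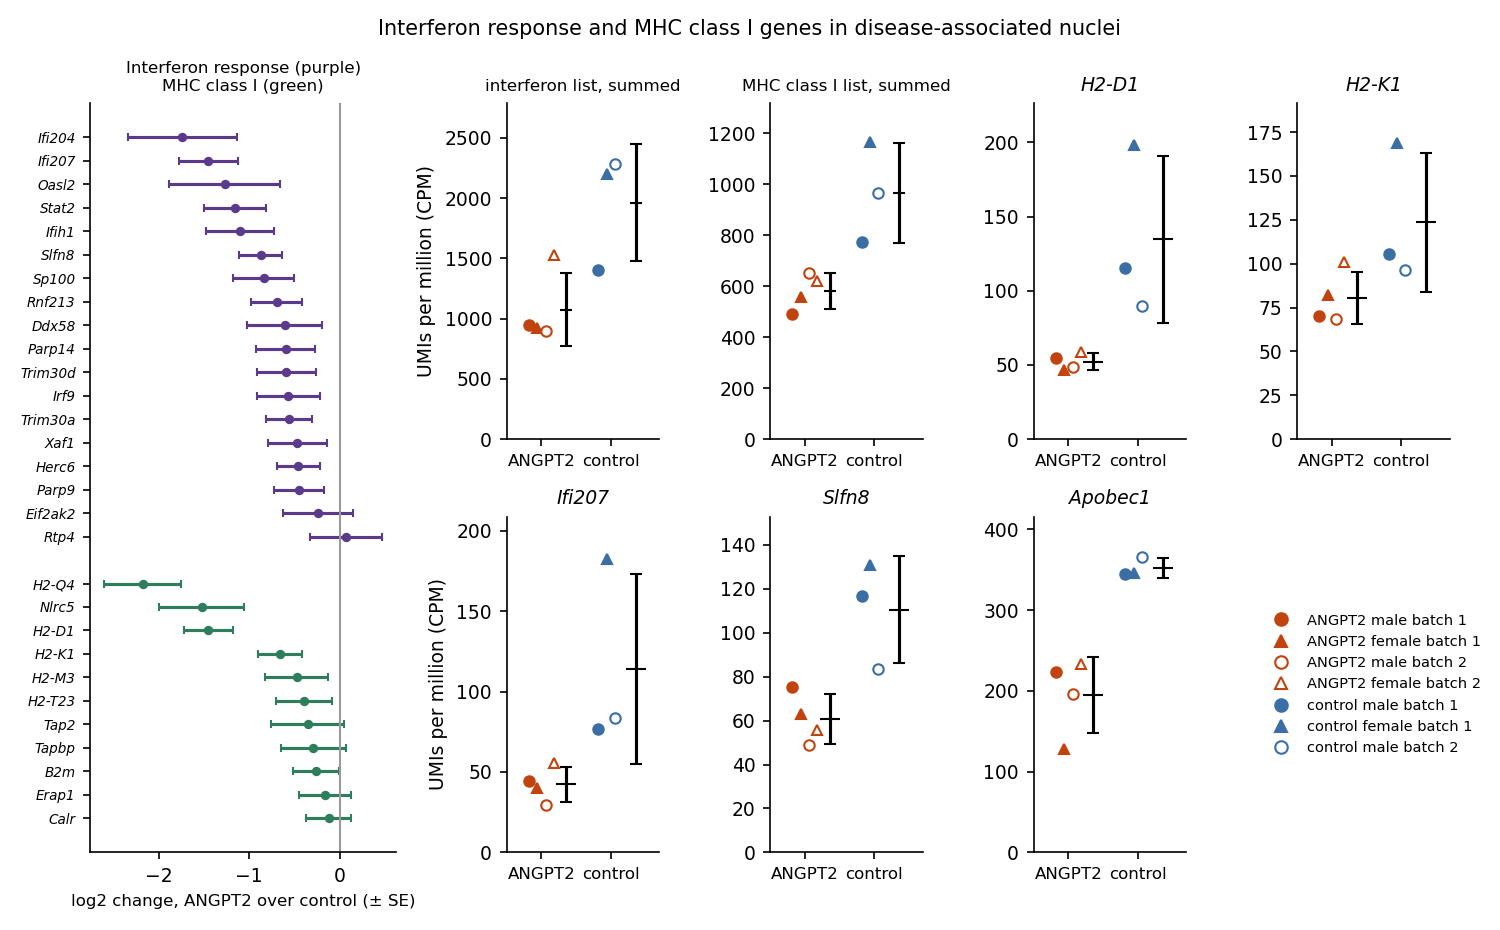
Left, log2 change of ANGPT2 over control (horizontal axis, bars are ± SE of edgeR's fit) in disease-associated nuclei for 18 of the 19 tested interferon response genes in purple and MHC class I genes in green, from -2.18 for H2-Q4 to 0.08 for Rtp4. Right, summed lists (CPM of all UMIs) and single genes (TMM-scaled CPM) per library, ANGPT2 left in orange and control right in blue, with mean ± SD as black bars (n = 4 and 3); H2-D1 is at 46.3 to 59.0 CPM in ANGPT2 mice and 89.9 to 198 CPM in controls.

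Higher in ANGPT2 mice were Rgs20, a regulator of G-protein signalling, with 65.0, 73.7, 29.3 and 101 CPM against 23.4, 25.7 and 25.7 CPM in controls, and Fbxl7, a ubiquitin-ligase subunit, with 59.8, 75.8, 48.9 and 55.6 CPM against 32.5, 17.1 and 12.8 CPM. Rab30, a Golgi GTPase, was at 70.3, 54.7, 58.6 and 83.4 CPM against 24.7, 24.5 and 45.0 CPM in controls. All ANGPT2 libraries were above every control for the 3 genes, at log2 changes of 1.54 (SE 0.32), 1.43 (SE 0.33) and 1.29 (SE 0.31) and edgeR adjusted p = 0.283, 0.517 and 0.517. For Rgs20 the separation was narrow, with 29.3 CPM in the ANGPT2 male of batch 2 against up to 25.7 CPM in controls. In that ANGPT2 library 3 UMIs amount to 27.5 CPM of all UMIs, so its values for these genes rest on few UMIs. Rgs20 passed the threshold where the rule needed 3 genes (log2 change 2.28, edgeR adjusted p = 0.0168), from fewer nuclei. Other genes among the 10 with the smallest p on this side were Sox2ot, Slc4a4, Kcnh7, 2810403D21Rik, Lypd6, Slc7a11 and Usp6nl, none past an adjusted p of 0.05. With batch and sex in the fit Rgs20 (log2 change 1.45, edgeR adjusted p = 0.0323), Fbxl7 (1.55, adjusted p = 0.0323), Usp6nl (1.17, adjusted p = 0.0201) and Kcnh7 (0.82, adjusted p = 0.0383) passed it. Of 4 tested astrocyte markers all were above 0 and 2 (Ntsr2 and Gja1) had every ANGPT2 library above every control, against 2.25% of all genes tested. The astrocyte markers summed to 195, 252, 82.5 and 238 CPM in ANGPT2 mice against 121, 120 and 105 CPM in controls, and their part in these genes was not tested.

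The other microglial lists had medians closer to 0. Of 32 tested disease-associated genes outside the rule 22 were below 0 (median -0.10), against 49.1% of all genes tested. At an unadjusted p under 0.05, 4 of them were lower, against 1.69% of all genes. Among the 4, Lilrb4a had 127, 162, 264 and 323 CPM in ANGPT2 mice against 368, 364 and 379 CPM in controls (log2 change -0.81, SE 0.25, edgeR adjusted p = 0.999). With batch and sex in the fit it was at -1.07 (edgeR adjusted p = 0.00151). The others were Cybb, the NADPH oxidase subunit, Cd300lf, a lipid-binding receptor, and Ccl6, a chemokine. Apoe had 778, 888, 1534 and 948 CPM in ANGPT2 mice against 995, 1311 and 854 CPM in controls, and Trem2 had 320, 248, 323 and 264 CPM against 272, 234 and 302 CPM. Both overlapped. Of 28 tested homeostatic genes 21 were above 0, none at a p under 0.05, with a median of 0.14. Their sum was 20579 to 23841 CPM in ANGPT2 mice against 19029 to 20608 CPM in controls, with a narrow overlap. Without called doublets and nuclei with oligodendrocyte markers the homeostatic sums were 23915 to 25860 CPM (SD 845) against 21308 to 23416 CPM (SD 1058) and did not overlap. That removal of marked nuclei was added after the data were seen. The lipid (19 genes, median -0.05), phagocytosis and lysosome (34 genes, 0.06), TREM2 signalling (18 genes, -0.01), transcription factor (23 genes, 0.01), growth and migration (22 genes, 0.07) and glycolysis (17 genes, -0.08) lists lay within 0.1 of 0. Complement genes had a median of 0.16 over 10 genes, and inflammatory genes -0.27 over 15, of which 13 were below 0 and 1, Cd14, had a p under 0.05. In other microglia the homeostatic sums were 25558 to 30517 CPM in ANGPT2 mice against 22689 to 25484 CPM in controls, without overlap. In all microglia 25 of 30 tested homeostatic genes were above 0, where 50.8% of all genes were below 0. There 4 of the 30 were higher at an unadjusted edgeR p under 0.05, against 1.63% of all genes tested.

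Whether the ANGPT2 effect differed between disease-associated and other microglia was tested as an interaction over 14 sums, with the library as a block. Of 8500 genes none passed an adjusted p of 0.05 with edgeR, and 415 (4.88%) had an unadjusted p under 0.05. DESeq2 called none and had 75. The smallest adjusted p was that of Wdr17, a WD-repeat protein, with an interaction of -2.73 (SE 0.54, edgeR adjusted p = 0.0563). H2-D1 differed by -0.38 and Ifi207 by 0.24 between the states, each with an edgeR adjusted p of 0.999. The median interaction was -0.01 for the interferon list, 0.06 for MHC class I and 0.0066 for the homeostatic list. The summed interferon list in other microglia was 835, 906, 761 and 1369 CPM in ANGPT2 mice against 1473, 1891 and 1765 CPM in controls, and did not overlap there. All 6 tested precursor-cell markers had an interaction above 0, against 51.7% of all genes below 0. Vcan was at 2.18 (0.37 to 3.14 over the settings tried) and Pdgfra at 2.23 (0.70 to 2.73). In disease-associated nuclei these markers summed to 417 to 953 CPM in ANGPT2 mice and 234 to 935 CPM in controls. Without called doublets and nuclei with oligodendrocyte markers these sums were 207 to 253 CPM and 201 to 287 CPM. In other microglia the precursor-cell markers summed to 239 to 627 CPM in ANGPT2 mice against 554 to 837 CPM in controls. The group means there were 361 and 705 CPM, against 663 and 623 CPM in all disease-associated nuclei. The groups thus stood further apart in the other microglia. With a batch by state term 5 genes passed the threshold, among them Wdr17 at -2.73 (edgeR adjusted p = 0.0126).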

How the data were processed

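The data are droplet single-nucleus RNA libraries of 7 mice, 1 library per mouse as far as the labels say. The deposited tables are UMI counts for each barcode and gene, not normalized, which the authors made with Cell Ranger 6.1.2 on mm10 (GRCm38), per the submitters' processing notes. They list 32285 genes. Nothing in the sources used here says whether free RNA or doublets had been removed.

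Barcodes were kept with at least 300 genes and under 5% mitochondrial UMIs, which removed 1 and 116 of 58286. The rule given in the opening chose the nuclei on unthinned counts. The members and the gene lists were chosen with earlier results of these data known. Doublets were called by the share of simulated doublets (2 for each nucleus) among 50 neighbours, on 30 components of 2000 variable genes, at 0.8% per 1000 nuclei, which marked 5.04% to 7.70% of a library. They were kept in the values unless stated. Oligodendrocyte and astrocyte nuclei were gated from their own markers.

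For shares, each nucleus was thinned to 1000 UMIs (500 and 1500 as alternatives) and shallower nuclei were left out. Groups were compared by an exact two-sided permutation test over libraries, whose smallest p is 0.0286. For genes, counts were summed per library (ANGPT2 libraries held 415007, 504556, 109066 and 319236 UMIs in disease-associated nuclei, and controls 809045, 880254 and 162557). The sums were tested with edgeR 4.0.16 (R 4.3.3; quasi-likelihood test, TMM, minimum count 10, minimum total 15, treatment only) with Benjamini-Hochberg adjustment over all genes tested at 0.05. DESeq2 1.42.0 was the alternative tool. Disease-associated and other microglia were compared within libraries by log2 CPM with a prior count of 2 and no test. Intervals are 95% Wilson intervals, and they and the limits of 3 counts for a count of 0 cover counting error only. Tests were checked on simulated data. Python 3.11.15, numpy 2.4.6, scipy 1.17.1, pandas 2.3.3, scikit-learn 1.9.0 and matplotlib 3.10.9 were used.

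Named genes were the rule and gate genes, the 10 genes with the smallest p in each direction, the 15 highest and 10 lowest genes between the states with at least 50 CPM in either, and up to 4 genes with the highest CPM per list. Lilrb4a in the treatment comparison, Cybb, Cd300lf, Ccl6, Cd14, Irf9 and Gja1 fall outside this rule and were named after their values were seen. The labels state a batch for each mouse. Deviations from the group means correlated at a median r of 0.116 over 6 pairs of libraries of the same batch (0.00411 to 0.212) and -0.119 over 6 pairs of different batches (-0.193 to 0.0271), across 7832 genes. Batch was therefore tried as a replicate block. Nothing in the labels says how the mice of a group were related, so p-values measure the spread between these libraries. Other alternatives were size factors of DESeq2, no count filter, sex as a term, removal of doublets, of lymphocyte or border macrophage nuclei and of nuclei with oligodendrocyte markers, stricter rules, and each library left out. The last of the nuclei removals and the rule without Apbb2, Myo1e and Csf1 were added after the data were seen. Start-site windows came from RefSeq (GRCm38.p6). Some single-gene results are not reported here.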

Additional observations from a re-analysis of the deposited data

Results flagged for a closer look

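In 6 of the 46 sets of 4 or more libraries examined, 1 library stood apart from the rest of its group, and chance gives about 1 in 20. The ANGPT2 female of batch 2 did so for the share of microglial nuclei that met the rule among the ANGPT2 libraries, with 51.0% at 1000 UMIs and 25.3% at 500 UMIs. It also did so for Igf1 in all microglia, with 281 CPM. Among the males, the control of batch 2 stood apart with a share of 38.2% at 1000 UMIs. In the ANGPT2 male of batch 2, the disease-associated nuclei had 29.3 CPM of Galnt17, a glycosyltransferase gene, below the other ANGPT2 libraries, and 762 CPM of Sox2ot, a long noncoding RNA, above them. These 3 libraries are those of batch 2, which were shallower. The flagged shares were taken with each nucleus thinned to 1 fixed number of UMIs. In the ANGPT2 female of batch 2 this left out 375 nuclei at 1000 UMIs and 0 at 500 UMIs. Any further part of depth, and its part in the flagged gene levels, was not tested.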

How the results depend on the processing

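Depth limits these results: 68 to 262 disease-associated nuclei per library carry all gene tests, and 1 female stands among the controls. The ANGPT2 minus control share kept its sign and missed the threshold in the settings tried, except that it was 0.298 points without Apbb2 and Myo1e, 0.529 without Apbb2, Myo1e and Csf1, and -10.5 to 0.593 with 1 library left out (lowest without the ANGPT2 female of batch 2, -9.93 without the control male of batch 1 and above 0 without the control female). With batch as a replicate block it was -4.67 (exact p = 0.778). The female minus male share passed with 4.97 points without Apbb2, Myo1e and Csf1, and was 6.76 to 19.7 with 1 library left out. The batch block gave it 14.7 (exact p = 0.167).

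Genes called in disease-associated nuclei for ANGPT2 against control numbered 0 in the reported fit and 0 with the replicate block, 23 with no count filter, 17 with the replicate block and sex, 1 at 3 rule genes, 1 without Apbb2 and Myo1e and 2 without Apbb2, Myo1e and Csf1. They were 0 to 3 with 1 library left out, 3 without the control male of batch 1 (Nlrc5, Ifi207 and H2-D1) and 2 without that of batch 2 (H2-D1 and H2-Q4). In all microglia they were 43 with no filter, 3 with sex, 20 with the replicate block and sex, and 0 to 1 with 1 library left out (1 without the ANGPT2 female of batch 2, Lilrb4a). For the interaction they were 6 with no filter, 5 with the replicate block, 1 with sex, 2 without Apbb2, Myo1e and Csf1, and 0 to 2 with 1 library left out (2 without the ANGPT2 male of batch 2, and 1 each without the ANGPT2 female of batch 2 and the control female). The cause was not tested.

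Genes higher in the disease-associated state numbered 97, but 61 without Apbb2, Myo1e and Csf1 and 55 with the rule on thinned counts (4895 genes), and 88 to 128 with 1 library left out. Lower genes numbered 33, but 63 at 3 rule genes, 61 without Apbb2 and Myo1e, 73 without Apbb2, Myo1e and Csf1 and 50 at a prior count of 0.5, and 32 to 51 with 1 library left out (51 without the control male of batch 2). The state difference of Tyrobp, at 0.16, turned to -0.34 and -0.56 without the 2 and the 3 common rule genes.

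The treatment effects of rule genes near 0 turned their sign. Detection of these genes chose the disease-associated nuclei, so their effects in those nuclei are a description of values that the rule used. In disease-associated nuclei the replicate block gave -0.10 for Cst7, -0.036 for Csf1, -0.054 for Apbb2, -0.062 for Axl and -0.093 for Igf1. With sex added it gave -0.17 for Cst7, -0.041 for Csf1, -0.065 for Apbb2, -0.064 for Axl and -0.17 for Igf1. Without oligodendrocyte-marked nuclei Apbb2 was at -0.032 and Lpl at 0.021. Lpl was at 0.081 at 3 rule genes, 0.060 without Apbb2 and Myo1e and 0.11 without Csf1 as well, where Csf1 was at -0.00987 and -0.084 and Axl at -0.21. In all microglia the replicate block gave -0.13 for Cst7 and -0.16 for Axl, sex -0.095 and -0.019, and both -0.29 and -0.20 with Apbb2 at -0.019. Without doublets Cst7 was at -0.12 and Axl at -0.14. Cst7 was at -0.00235 without lymphocyte and border macrophage nuclei. Without oligodendrocyte-marked nuclei Csf1 was at 0.026, Axl at -0.019 and Igf1 at 0.00238. With 1 library left out, effects in disease-associated nuclei ran from -0.079 to 0.47 for Cst7, -0.15 to 0.26 for Csf1, -0.024 to 0.70 for Dkk2, -0.14 to 0.26 for Apbb2, -1.49 to 0.23 for Gpnmb, -0.14 to 0.61 for Axl, -0.25 to 0.091 for Lpl, -0.38 to 0.16 for Myo1e and -0.22 to 0.26 for Igf1. In all microglia they ran from -0.29 to 0.29 for Cst7, -0.25 to 0.13 for Csf1, -0.10 to 0.86 for Dkk2, -0.088 to 0.19 for Apbb2, -1.73 to 0.33 for Gpnmb, -0.38 to 0.36 for Axl, -0.59 to 0.18 for Myo1e and -0.37 to 0.33 for Igf1. The medians of the interferon list in disease-associated nuclei were below 0 in every setting, at -0.90 to -0.56.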

Other observations

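At least 3 genes of the cell cycle list were detected in 25 of 1179 disease-associated nuclei and in 13 of 1535 other microglia, and the disease-associated nuclei were deeper. Of 4 tested border macrophage markers 3 were above 0 in ANGPT2 against control disease-associated nuclei (median 0.81), none at an adjusted p under 0.05 by edgeR. No lymphocyte marker of the list passed the count filter in these nuclei.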
